A study of Bos taurus with 8 samples.

Results

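The AP-1 and ATF transcription factors were taken by gene symbol from a list of 9 genes: the Fos family members FOS, FOSB and FOSL2, the Jun family members JUN, JUNB and JUND, the activating transcription factors ATF3 and ATF4, and BATF. They were listed by name, with earlier results of these data known. The rule then kept, for each gene, the brightest probe above background in at least 4 of 16 readings. Of these, 7 were measured among 6693 named genes with a usable probe, while ATF4 and BATF matched no probe and are not analysed here. FOSB was read by 2 probes and each of the others by 1.

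AP-1 is a family of dimers formed through leucine zippers, in which a Jun protein pairs with another Jun, with a Fos or with an ATF protein, and binds a short palindromic DNA element. FOS, FOSB, JUN, JUNB and ATF3 are immediate early genes, whose transcripts appear within minutes of growth factor, stress or contraction signals and are short-lived, whereas JUND is known for steadier expression. In skeletal muscle these genes are known to respond to exercise, stretch and injury. Gene roles given here are those known from human and mouse.

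Muscle came from the semitendinosus of the hind limb of 12 bulls, all 15 months old. The study set 4 Hereford and 4 Holstein-Friesian bulls, breeds with well-marbled beef, against 4 bulls of the lean Limousin breed. Each of 8 arrays carried a Hereford or a Holstein-Friesian bull with a Limousin bull in the other dye, with each Limousin bull used once per slide. Hereford was read in Cy5 on 1 slide and Holstein-Friesian in Cy3 on the other, so breed, dye and slide cannot be told apart. The labels give no treatment and no marbling score for these bulls.

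Hereford arrays had a median net signal of 97 to 139 intensity units and Holstein-Friesian arrays one of 30.5 to 46.5. The Limousin readings had 63 to 88 in Cy3 or 96.5 to 118 in Cy5. Each member probe had 2 spots per array, of which 0 were outliers. Precision is limited by there being 4 arrays per breed. All 15 measured skeletal muscle markers were above background in all 16 readings. The Hereford arrays had pairwise correlations of log2 ratio over all kept probes of 0.0612 to 0.531, and the Holstein-Friesian arrays 0.403 to 0.595. Fewer cells of a type and less RNA per cell cannot be told apart in whole muscle.

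ATF3, a stress-induced repressor and activator that dimerizes with Jun proteins, was higher in both marbled breeds than in Limousin. Its log2 ratio over Limousin was 1.83, 2.83, 2.69 and 3.76 in Hereford bulls 1 to 4, and 5.50, 4.45, 1.77 and 5.31 in Holstein-Friesian bulls 1 to 4. Every ratio was above 0, and the lowest Holstein-Friesian bull lay below every Hereford bull. ATF3 rose 6.84-fold in Hereford (log2 2.77 ± 0.79, SD, n = 4, limma adjusted p = 0.0307). In Holstein-Friesian it rose 19.1-fold (log2 4.26 ± 1.72, SD, n = 4, limma adjusted p = 0.00951). Among the 6693 named genes it ranked 1 by log2 ratio in each breed, a description of order with no test.

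The mean log2 level of ATF3 was 11.4 ± 0.83 in Hereford, 13.4 ± 2.15 in Holstein-Friesian, 8.65 ± 0.11 in Limousin read in Cy3 and 9.17 ± 0.44 in Limousin read in Cy5 (SD, n = 4 each). The Limousin levels were narrow and the breed levels wide, so the spread of the ATF3 ratio came mostly with the Hereford and Holstein-Friesian readings. The Hereford call was lost without bull 2 (adjusted p = 0.151) or bull 4 (adjusted p = 0.152), and the Holstein-Friesian call without bull 2 (adjusted p = 0.0731) or bull 4 (adjusted p = 0.0662), each time leaving out both arrays of the Limousin bull. Over the 4 refits that each left out 1 bull, the log2 ratio of ATF3 was 2.45 to 3.09 in Hereford, and in Holstein-Friesian it was 3.84 to 5.09.

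JUN, the founding AP-1 subunit and a target of the JNK kinases, was higher in both marbled breeds and had the smallest SD of the called members in each. Its log2 ratio was 1.63, 0.93, 1.25 and 1.08 in Hereford bulls 1 to 4, and 2.47, 1.88, 1.73 and 1.49 in Holstein-Friesian bulls 1 to 4. All 8 ratios were above 0, and the 2 breeds overlapped only through Hereford bull 1. JUN rose 2.33-fold in Hereford (log2 1.22 ± 0.30, SD, n = 4, limma adjusted p = 0.00953) and 3.72-fold in Holstein-Friesian (log2 1.89 ± 0.42, SD, n = 4, limma adjusted p = 0.00288). The Holstein-Friesian call of JUN held without any 1 of the 4 bulls, at log2 ratios of 1.70 to 2.03. Its mean log2 level was 12.3 ± 0.31 in Hereford and 12.6 ± 0.60 in Holstein-Friesian, against 11.1 ± 0.39 in Limousin read in Cy3 and 10.66 ± 0.42 in Limousin read in Cy5 (SD, n = 4 each). The Hereford call was lost without bull 2 (adjusted p = 0.0632), bull 3 (adjusted p = 0.0517) or bull 4 (adjusted p = 0.0644).

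JUND, the Jun protein most abundant in resting cells of many tissues, rose in Holstein-Friesian. Its log2 ratio was 1.17, 1.19, -0.45 and 0.73 in Hereford bulls 1 to 4, and 1.79, 1.90, 0.78 and 1.93 in Holstein-Friesian bulls 1 to 4. Bull 3 was the lowest in both breeds, and 1 of the 8 ratios was below 0. The Holstein-Friesian rise was 3.03-fold (log2 1.60 ± 0.55, SD, n = 4, limma adjusted p = 0.0214), and the Hereford ratio did not pass (log2 0.66 ± 0.77, SD, n = 4, limma adjusted p = 0.216). Without bull 3 the Hereford ratio was 1.03 and passed (adjusted p = 0.0242). The Holstein-Friesian call of JUND was lost without bull 1 (adjusted p = 0.0639), bull 2 (adjusted p = 0.114) or bull 4 (adjusted p = 0.137).

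JUNB, a Jun protein that can restrain JUN activity and is known for maintaining muscle fibre size in mouse, passed in neither breed. Its log2 ratio was -0.75, 0.27, 0.36 and -0.57 in Hereford bulls 1 to 4, and -0.25, 0.35, 1.09 and 2.25 in Holstein-Friesian bulls 1 to 4. The signs were mixed within each breed. The means were -0.17 ± 0.57 in Hereford and 0.86 ± 1.08 in Holstein-Friesian (SD, n = 4 each). The limma adjusted p was 0.842 in Hereford and 0.214 in Holstein-Friesian, and without bull 1 the Hereford mean was 0.02.

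FOS, the classic immediate early partner of JUN, rose in Holstein-Friesian and varied in sign among the Hereford bulls. Its log2 ratio was 0.39, -0.30, 1.98 and -1.09 in Hereford bulls 1 to 4, and 3.75, 3.91, 1.78 and 4.43 in Holstein-Friesian bulls 1 to 4. The breeds overlapped only through Hereford bull 3 and Holstein-Friesian bull 3, which share Limousin bull 3. FOS rose 11.1-fold in Holstein-Friesian (log2 3.47 ± 1.16, SD, n = 4, limma adjusted p = 0.0123), whereas the Hereford mean was 0.25 ± 1.31 (SD, n = 4, limma adjusted p = 0.842). By log2 ratio FOS ranked 3 among the 6693 named genes in Holstein-Friesian and 946 in Hereford. The Holstein-Friesian call was lost without bull 1 (adjusted p = 0.0503), bull 2 (adjusted p = 0.0889) or bull 4 (adjusted p = 0.0684), and the Hereford mean without bull 3 was -0.33.

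The mean log2 level of FOS was 10.1 ± 0.88 in Hereford and 13.0 ± 1.66 in Holstein-Friesian, against 9.90 ± 0.59 in Limousin read in Cy3 and 9.57 ± 0.51 in Limousin read in Cy5 (SD, n = 4 each). Hereford and Limousin levels of FOS differed by less than their spread. Limousin bull 3 had the lowest FOS level of the 4 Limousin bulls, 8.95 on the log2 scale as the mean of its dyes, against 9.75 to 10.1 in the other Limousin bulls. The ratios of bull 3 in both breeds are set against that level.

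FOSB, a Fos protein whose spliced form deltaFosB is long-lived, passed in neither breed. The brighter probe gave log2 ratios of 1.85, -0.77, -1.42 and -0.61 in Hereford bulls 1 to 4, and 0.21, 0.16, 0.06 and 0.48 in Holstein-Friesian bulls 1 to 4. The Hereford mean was -0.24 ± 1.44 and the Holstein-Friesian mean 0.23 ± 0.18 (SD, n = 4 each). The limma adjusted p was 0.816 in Hereford and 0.812 in Holstein-Friesian. The ratio of Hereford bull 1 stood apart from those of the other Hereford bulls, and without bull 1 the Hereford mean of FOSB was -0.93 and passed (adjusted p = 0.0360). On that array the log2 level was 15.2 in Hereford bull 1, against 12.7 to 14.2 in the other Hereford bulls. Limousin bull 1 read 13.3 there in Cy3, but 15.0 in Cy5 on the other slide. Against that Cy5 reading the ratio of Hereford bull 1 was 0.16. The second probe of FOSB gave means of -0.0059 in Hereford and 0.15 in Holstein-Friesian, and neither passed. The mean log2 level of the brighter probe was 14.07 in Hereford and 14.87 in Holstein-Friesian. In Limousin it was 14.30 in Cy3 and 14.65 in Cy5. The second probe was dimmer, at 11.61 in Hereford and 11.996 in Holstein-Friesian. Whether the signal of either probe is specific to FOSB was not tested, so these ratios describe the probes.

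FOSL2, which encodes the Fos protein Fra-2, was dim. It was well above background in 2 of 4 Hereford readings, 3 of 4 Holstein-Friesian readings and 0 of 8 Limousin readings. Its log2 ratio was 0.05, 0.03, 0.06 and 0.12 in Hereford bulls 1 to 4, and 0.29, 0.18, -0.0070 and 0.30 in Holstein-Friesian bulls 1 to 4. Neither breed passed (limma adjusted p = 0.596 in Hereford and 0.118 in Holstein-Friesian), and no fold is given, since Limousin was not well above background in any reading. With the scanner software's processed signals in place of the normexp correction, its Holstein-Friesian log2 ratio was 2.28 (adjusted p = 0.00761), and with median centring in place of loess 0.63 (adjusted p = 0.00685). The probe was kept only through readings of the marbled breeds, which favours a ratio above 0. These 2 passes are therefore not read as a rise.

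**Figure D1:**
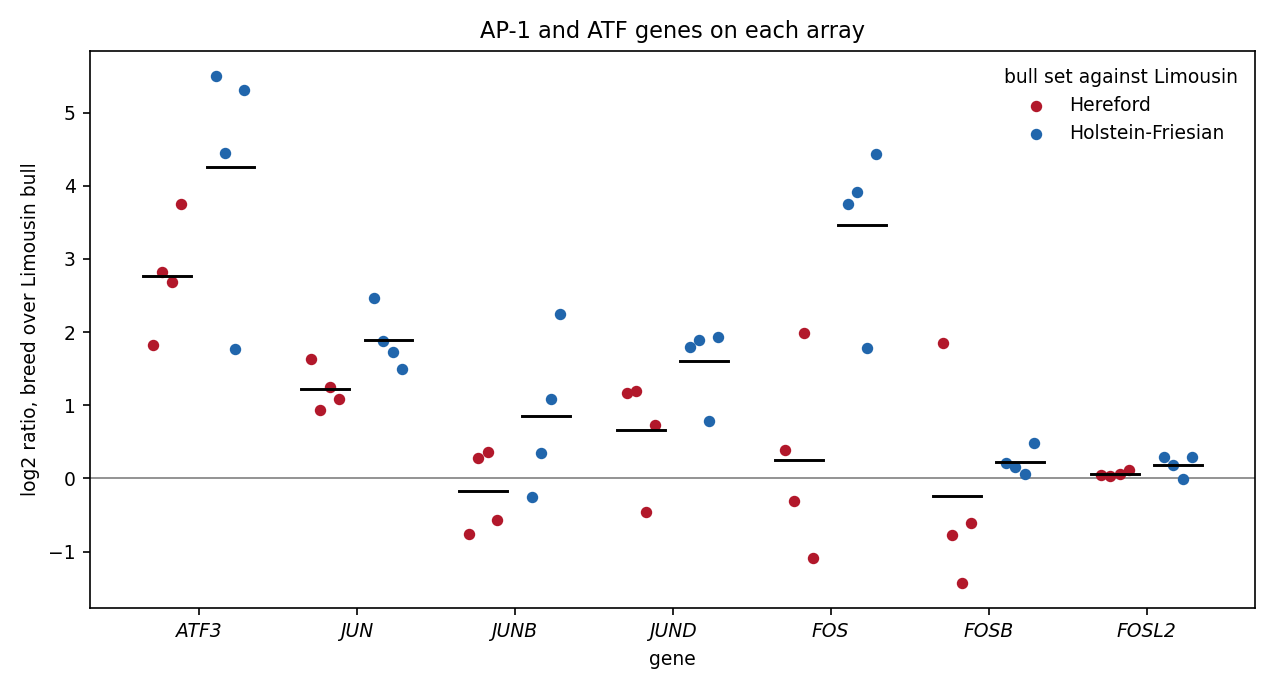
Log2 ratio over Limousin of the 7 measured members on each array (points), with the breed mean (bar), Hereford left of Holstein-Friesian. ATF3 and JUN lie above 0 on all 8 arrays, while FOS lies above 0 on every Holstein-Friesian array and on both sides of 0 in Hereford.

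**Figure D2:**
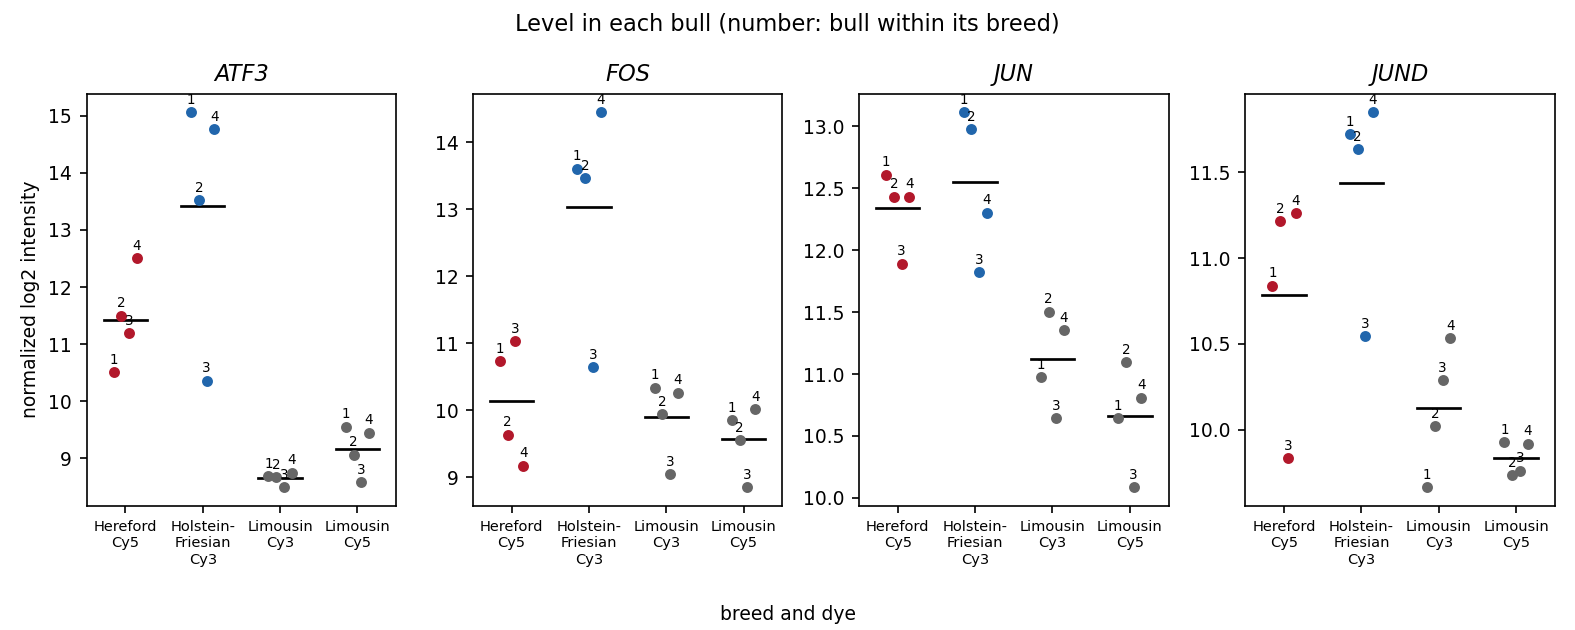
Normalized log2 intensity of ATF3, FOS, JUN and JUND in each bull by breed and dye (points numbered by bull, bars are means; each panel has its own axis, which does not start at 0). Levels of different genes come from different probes and are not comparable. Holstein-Friesian bull 3 is the lowest of its breed in all 4 panels, and every ATF3 level of Limousin lies below those of both breeds.

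Counted over the members, 2 of 7 rose and 0 fell in Hereford (ATF3 and JUN), where 7.13% of all 17061 probes tested were called with 3.39% higher and 3.74% lower. In Holstein-Friesian 4 of 7 rose and 0 fell (ATF3, FOS, JUN and JUND), where 6.45% of probes were called, 3% higher and 3.45% lower. The members were chosen with earlier results of these data known, so setting their counts beside these shares is no test. Members with an unadjusted p under 0.05 numbered 2 in Hereford and 5 in Holstein-Friesian, the latter with FOSL2 (limma unadjusted p = 0.0167). No share of all probes at that threshold is given here or below, so counts of this kind are description only. FOSL2 was kept only through readings of the marbled breeds, which favours a ratio above 0, so the medians in this paragraph leave it out. Over the 6 members above background in all 16 readings, the median log2 ratio was 0.45 in Hereford, with 4 above 0, and 1.75 in Holstein-Friesian, with 6 above 0. The same medians over the 5569 named genes above background in all readings were -0.0086 in Hereford and 0.0059 in Holstein-Friesian. Without the array of Holstein-Friesian bull 3, an alternative chosen after the data were seen, the counts were again 2 and 4. The count was 0 in Hereford when the Hereford arrays were fitted alone, without pooling the spread over breeds, with an adjusted p of 0.0541 for ATF3 and for JUN.

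Averaged over the marbled breeds within each Limousin bull, 3 of 7 members rose and 0 fell, where 0.598% of probes were called, 0.322% higher and 0.275% lower. ATF3 had log2 ratios of 2.23 to 4.53 over the 4 bulls and rose 11.4-fold (log2 3.52 ± 0.95, SD, n = 4, limma adjusted p = 0.0479). FOS lay between 1.67 and 2.07 and rose 3.62-fold (log2 1.86 ± 0.17, SD, n = 4, limma adjusted p = 0.00947). This average of FOS came mostly with Holstein-Friesian, at a mean of 3.47, since the Hereford mean was 0.25 and did not pass (limma adjusted p = 0.842). The small spread of FOS stood beside a spread of 1.31 in Hereford and 1.16 in Holstein-Friesian. The bull with the highest Hereford ratio had the lowest Holstein-Friesian ratio, and the bull with the lowest had the highest. JUN lay between 1.29 and 2.05 and rose 2.94-fold (log2 1.56 ± 0.34, SD, n = 4, limma adjusted p = 0.0459). With a random block for the Limousin bull in a fit of 8 arrays, the call of FOS was lost (adjusted p = 0.0802) and JUND was called (adjusted p = 0.0260, main value log2 1.13 ± 0.65, SD, n = 4, adjusted p = 0.108). All 3 calls were lost when any 1 bull was left out, which left 3 values per gene: at log2 ratios of 3.18 to 3.94 for ATF3, 1.79 to 1.92 for FOS and 1.39 to 1.65 for JUN, the adjusted p was at least 0.0534.

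The test of Hereford minus Holstein-Friesian called 0 of 7 members, where 2.68% of probes were called, 1.54% higher and 1.15% lower, and 2 had an unadjusted p under 0.05. Over the 6 members above background in all readings the median was -0.99, against -0.02 over the 5569 named genes of that kind, and all 6 differences were negative in this fit. FOS had the largest, -3.22 on the log2 scale (95% interval -4.96 to -1.49, limma adjusted p = 0.0647). It passed with the block for the Limousin bull (adjusted p = 0.0354) and without bull 3 (adjusted p = 0.0430). Paired by Limousin bull, its differences ran from -5.52 to 0.20 (SD 2.45, n = 4), and only bull 3 was above 0. The fit behind the 95% intervals did not pair the arrays, and the block used the same correlation, 0.305, for every probe. FOS ratios ran in opposite order over the bulls, so neither the interval nor the block pass of FOS reflects the spread of its pairs. That pass is not read as a breed difference. The 95% interval was -3.36 to 0.40 for ATF3 and -1.89 to 0.0075 for JUND. JUN differed by -0.67 (95% interval -1.20 to -0.14, adjusted p = 0.155), and this sign turned to 0.25 when each breed was set against Limousin in its own dye and to 0.20 with median centring in place of loess. JUNB turned to 0.30 in the same dye and FOSB to 0.61 with median centring. JUND had a difference of -0.94, but -0.36 in the same dye and -0.14 with median centring.

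**Figure D3:**
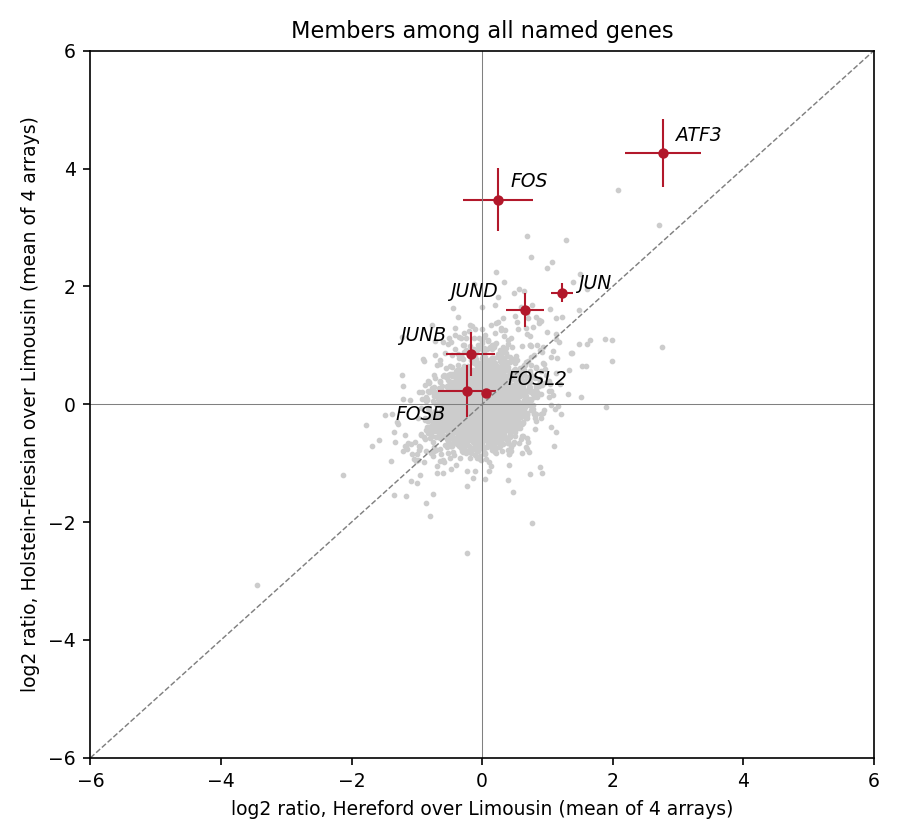
Mean log2 ratio over Limousin in Hereford (x) and in Holstein-Friesian (y) for all 6693 named genes (grey) and the 7 measured members (red, with standard errors). The 2 axes share the Limousin bulls; ATF3 and FOS lie at the top of the plot, and the dashed line marks equal ratios.

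The dyes were checked by setting each Limousin bull read in Cy5 against itself read in Cy3, across the slides. Of 17061 probes, 754 (4.42%) were called in this check. JUN was lower in Cy5 by a log2 difference of -0.46 (limma adjusted p = 0.0367), FOS by -0.33 (adjusted p = 0.0489) and JUNB by -0.67 (adjusted p = 0.0394), each in 4 of 4 bulls. ATF3 had a difference of 0.51 (adjusted p = 0.0813). Dye and slide cannot be told apart in this check, and their part in the breed ratios was not tested by it.

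Reading each breed against Limousin in the same dye, across slides, removes the dye from the comparison and puts the slide in its place. ATF3 then had a log2 ratio of 2.26 in Hereford (adjusted p = 0.0972) and 4.77 in Holstein-Friesian (adjusted p = 0.00991). JUN had 1.68 in Hereford (adjusted p = 0.00881) and 1.44 in Holstein-Friesian (adjusted p = 0.00744), and it passed in both. FOS had 0.57 in Hereford (adjusted p = 0.576) and 3.14 in Holstein-Friesian (adjusted p = 0.0147), and JUND passed in Holstein-Friesian at 1.31 (adjusted p = 0.0432). Thus 4 members passed in Holstein-Friesian in either reading, and 1 rather than 2 in Hereford.

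**Figure D4:**
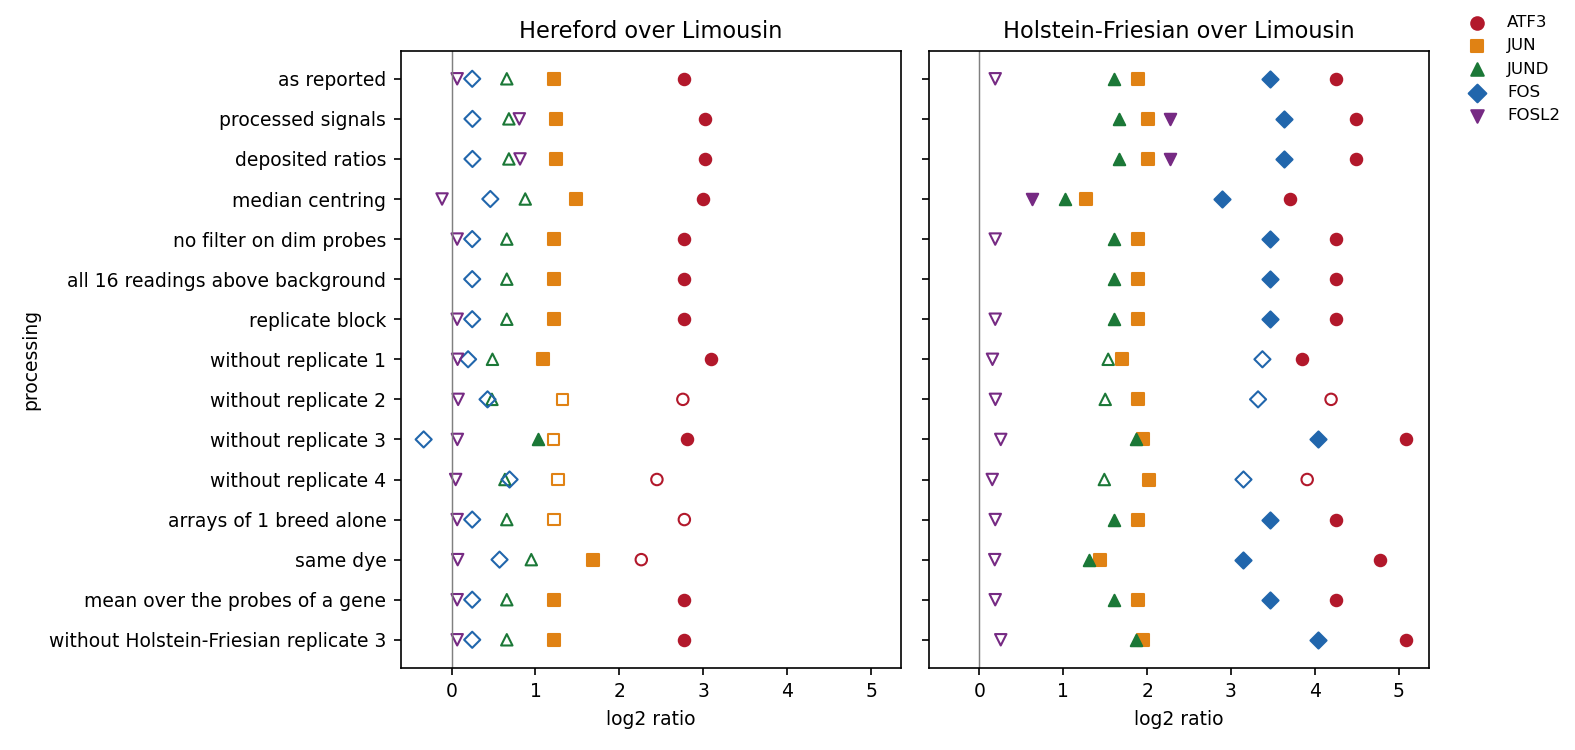
Log2 ratio over Limousin of ATF3, JUN, JUND, FOS and FOSL2 under each processing alternative, Hereford left and Holstein-Friesian right (filled symbols have an adjusted p under 0.05). ATF3 and JUN stay above 0 throughout, and FOSL2 in Holstein-Friesian lies at 2.28 with processed signals, against 0.19 as reported. Alternatives that change only the filter or the fit leave these log2 ratios as they were. FOSL2 was not well above background in any Limousin reading.

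Other basic leucine zipper factors, partners and relatives of AP-1, were measured for 18 of 42 genes. Of these, 14 were above background in all 16 readings, so the list medians include dimmer genes. In Hereford 3 rose and 0 fell, and in Holstein-Friesian 2 rose and 1 fell, with medians of -0.03 and 0.11. Of all 17061 probes 7.13% were called in Hereford and 6.45% in Holstein-Friesian. No list count here or below was tested against these shares. JDP2, a Jun dimerization partner that represses AP-1 sites, rose in both breeds (log2 0.69, adjusted p = 0.0129 in Hereford, and 0.47, adjusted p = 0.0388 in Holstein-Friesian). NFIL3, a repressor known from the circadian clock, rose in Hereford (log2 0.89, adjusted p = 0.0159), as did XBP1, a factor of the unfolded protein response (log2 0.59, adjusted p = 0.0330). DDIT3, a stress factor also called CHOP and counted with the ATF4 targets too, rose in Holstein-Friesian (log2 0.68, adjusted p = 0.0183), while NFE2L1, a factor for proteasome genes, fell there (log2 -0.51, adjusted p = 0.0406).

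Of the kinases and cofactors that act on AP-1, 17 of 31 were measured. In Hereford 1 rose and 2 fell, and in Holstein-Friesian 0 changed by limma, with 4 at an unadjusted p under 0.05. The shares of all probes called were 7.13% in Hereford and 6.45% in Holstein-Friesian. MAPK14, the stress kinase p38 alpha, was higher in Hereford (log2 0.36, adjusted p = 0.0390), whereas CRTC2, a coactivator of CREB, fell (log2 -0.55, adjusted p = 0.010), as did MAP2K4, a kinase that activates JNK (log2 -0.36, adjusted p = 0.0390). The list medians were -0.08 and -0.01 in Hereford and in Holstein-Friesian.

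Known AP-1 target genes were measured for 17 of 26. Of these, 13 were above background in all 16 readings, so the list medians include dimmer genes. In Hereford 0 rose and 1 fell, MMP1, a collagenase (log2 -0.23, adjusted p = 0.0447), and in Holstein-Friesian 2 rose and 0 fell, with medians of -0.07 and 0.20. These counts stand beside 7.13% of all probes called in Hereford and 6.45% in Holstein-Friesian. They are not read as a result about the targets. PTGS2, the inducible cyclooxygenase, rose in Holstein-Friesian (log2 0.88, adjusted p = 0.00655), as did CCN1, a secreted matrix-binding protein also listed with the immediate early genes (log2 2.50, adjusted p = 0.0364). PTGS2 had the only called difference between the breeds in the list (log2 -0.97, adjusted p = 0.0241), where 2.68% of all probes were called.

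Known targets of ATF4 and of the integrated stress response were measured for 19 of 37, though ATF4 itself was not. Of these, 14 were above background in all 16 readings. In Hereford 0 were called by limma, with 9 at an unadjusted p under 0.05, of which ASNS, asparagine synthetase, had the smallest p (log2 1.06, adjusted p = 0.0564). In Holstein-Friesian 3 rose and 1 fell, where 6.45% of all probes were called. DDIT4, an inhibitor of mTORC1 signalling, rose (log2 1.88, adjusted p = 0.0399) and SLC7A5, an amino acid transporter, rose slightly (log2 0.20, adjusted p = 0.0469), whereas VLDLR, a lipoprotein receptor, fell (log2 -0.83, adjusted p = 0.0413).

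Other immediate early genes were measured for 13 of 24, all above background in all 16 readings. In Hereford 4 rose and 0 fell, and in Holstein-Friesian 9 rose and 0 fell, with medians of 0.74 and 1.63. Of all probes 7.13% were called in Hereford and 6.45% in Holstein-Friesian. This list, like the members, was chosen with earlier results of these data known. ZFP36, which destabilizes short-lived messenger RNAs, rose in both breeds (log2 0.76, adjusted p = 0.0143 in Hereford, and 1.69, adjusted p = 0.00142 in Holstein-Friesian). The transcription factors KLF4 and MYC also rose in both, KLF4 by 0.99 in Hereford and 2.31 in Holstein-Friesian and MYC by 1.28 in Hereford and 2.78 in Holstein-Friesian on the log2 scale. MCL1, which blocks cell death, rose in both as well (log2 0.79, adjusted p = 0.0269 in Hereford, and 0.84, adjusted p = 0.0226 in Holstein-Friesian). GADD45B, a growth arrest gene, rose in Holstein-Friesian (log2 1.63, adjusted p = 0.00311) and had a called difference between the breeds (log2 -2.08, adjusted p = 0.0105), as did ZFP36 (log2 -0.93, adjusted p = 0.0356). Heat shock genes, measured for 10 of 14, had 4 that rose and 0 that fell in Hereford. These were the chaperones DNAJB1 (log2 1.32), DNAJA1 (1.11), HSPH1 (1.05) and HSPA5 (0.58). In Holstein-Friesian 0 rose and 1 fell, HSPA8 (log2 -0.57, adjusted p = 0.0292).

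**Figure D5:**
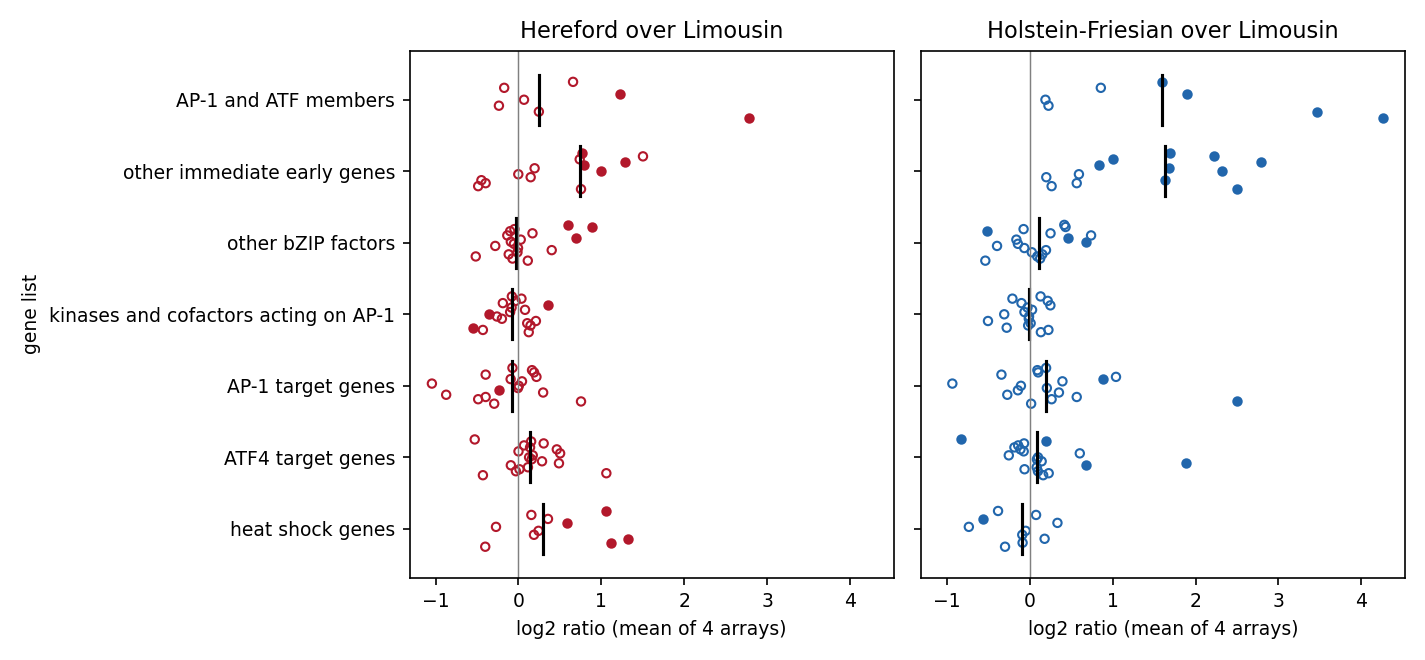
Log2 ratios over Limousin of the measured genes in each list, Hereford left and Holstein-Friesian right, on shared axes. Points are genes (filled where called), bars are list medians, and the immediate early genes sit above 0 in Holstein-Friesian, with a median of 1.63, above those of the other 5 lists shown apart from the members. The bar of the members includes FOSL2 and lies at 0.25 in Hereford and 1.60 in Holstein-Friesian.

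Genes with the ratio pattern most like a member's were chosen by the mean absolute difference of log2 ratio over the 8 arrays. For ATF3 these were PDK4, the pyruvate dehydrogenase kinase induced by fasting (1.11), LOC513055 (1.16) and MYC (1.65). For FOS they were MYC (1.03), KLF4 (1.05) and CCN1 (1.20), and for JUN they were KLF4 (0.44), ZFP36 (0.45) and ZBTB21 (0.45). PDK4 had a mean log2 ratio of 2.71 in Hereford and 3.05 in Holstein-Friesian, where ATF3 had 2.77 in Hereford and 4.26 in Holstein-Friesian. On average over the arrays, the listed genes lay within 0.5 log2 units of JUN, while for ATF3 and FOS the nearest differed by more than 1.

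Markers of other cells were read beside the members. The counts of called markers stand beside 7.13% of all probes called in Hereford and 6.45% in Holstein-Friesian. None was tested against these shares. Of the macrophage markers, 4 of 9 were measured (CD68, CD14, AIF1 and C1QA). Their log2 ratios had a median of -0.31 in Hereford, with 0 of 4 above 0, and of 0.55 in Holstein-Friesian, with 4 of 4 above 0, and 0 were called by limma in either breed, with 2 at an unadjusted p under 0.05 in each. Their summed level was 1616 to 2795 in Hereford and 3108 to 9471 in Holstein-Friesian, against 2228 to 4629 in Limousin read in Cy3 and 1771 to 3846 in Cy5. Of their differences between the breeds 0 were called, with 3 at an unadjusted p under 0.05, and the part of macrophages in the members' ratios was not tested. Fibroblast markers, all 8 measured, summed to 32558 to 55689 in Hereford and 15447 to 32109 in Holstein-Friesian, against 33561 to 55110 in Limousin read in Cy3 and 28912 to 54703 in Cy5; in Holstein-Friesian 1 of the 8 fell, with a list median of -0.39. Of the 15 skeletal muscle markers 2 rose in Hereford and 2 fell in Holstein-Friesian. Smooth muscle and pericyte markers had 2 of 5 that rose in Hereford, and lymphocyte markers 2 of 6 that rose in Holstein-Friesian. Of the 8 adipocyte markers 1 rose and 1 fell in Holstein-Friesian. Their part in the members' ratios was not tested either. Endothelial, satellite cell, neutrophil, red blood cell and nerve markers had 0 called by limma in either breed, with 0 or 1 per list at an unadjusted p under 0.05, except 3 of 4 satellite cell markers in Holstein-Friesian.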

How the data were processed

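Total RNA of semitendinosus muscle, extracted with Trizol per the labels, was measured on 8 Agilent 2-colour arrays. Per the submitters' processing notes, scans were quantified in Agilent Feature Extraction 10.7.3.1. Spot and background brightness are intensity per the file headers, given as medians over pixels. The deposited table holds the scanner's log10 ratio (Cy5 over Cy3), the same in 44407 of 44407 spots, with Holstein-Friesian arrays as Limousin over Holstein-Friesian. No mean spot signal was used, because the files read here give medians.

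With limma 3.58.1 in R 4.3.3 (statmod 1.5.0, jsonlite 2.0.0; plots with matplotlib 3.10.9), background was corrected by normexp (offset 50) and arrays by loess (span 0.3). Each ratio was expressed as breed over Limousin. Control and outlier spots were left out, and spots averaged over 21475 probes. Probes with at least 4 of 16 readings well above background were kept (17061). RefSeq names (assembly ARS-UCD2.0) were given to 8297 probes of 7788 genes; no coordinates are used.

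Breed means were fitted over 8 arrays with lmFit and eBayes, and the marbled comparison over 4 means per Limousin bull. All tests are two-sided. Calls need a p under 0.05 after Benjamini-Hochberg adjustment for all 17061 probes. Per the labels a replicate number marks 1 Limousin bull, so numbers pair the arrays; deviations of same-numbered arrays correlated at 0.415, 0.273, 0.500 and 0.0987. A gene was read by its brightest kept probe. Named genes were the members, up to 4 genes of each other list with the smallest p among those that passed, or 2 where none did, and the 3 most alike for ATF3, FOS and JUN. The members and the 18 lists of 270 genes were chosen with earlier results of these data known. Alternatives were processed signals, deposited ratios, median centring, other filters on dim probes, the Limousin bull as a block, each breed alone, the same dye, the mean over probes and leaving out bulls. The fits were tested on simulated ratios with errors drawn independently for each array. This did not cover the shared Limousin bulls or the steps before the fits.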

Additional observations from a re-analysis of the deposited data

Results flagged for a closer look

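Of 14 sets of 4 arrays checked, 1 held a ratio far from the rest of its breed. JUND on the array of Holstein-Friesian bull 3 had a log2 ratio of 0.78, against 1.79 to 1.93 in the other Holstein-Friesian bulls. Its gap to the nearest bull made up 0.880 of the breed's range, above Dixon's critical value for 4 samples. Chance alone can flag a set of this kind, and the cause was not tested. The same bull was the lowest of its breed in 5 of the 7 measured members (ATF3, FOS, FOSB, FOSL2 and JUND), and bull 4 the highest in 5 (FOS, FOSB, FOSL2, JUNB and JUND). In Hereford no bull was the lowest or the highest in more than 2 members.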

How the results depend on the processing

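Direction held for the members that were called, in the breed in which they were called, under each alternative run. For these members several alternatives could not turn a sign. Those that change only the filter, the fit or the averaging over probes returned the same log2 ratio. All 4 ratios of each call were above 0, so leaving out 1 bull could not turn it either. Deposited ratios repeated the values of processed signals. The number of members called in Hereford (2) was 0 with the Hereford arrays fitted alone, 1 with the same dye, and 0 to 3 when 1 bull was left out. In Holstein-Friesian (4) it was 1 to 4 without 1 bull. With processed signals, deposited ratios or median centring it was 5, where FOSL2, not well above background in any Limousin reading, was added. In the marbled comparison (3) it was 4 with processed signals or deposited ratios, again with FOSL2 (adjusted p = 0.0249 with processed signals), and 1 without a filter on dim probes, where ATF3 (adjusted p = 0.0560) and JUN (adjusted p = 0.0535) lost their calls, and 0 to 0 without 1 bull. In the difference (0) it was 1 with processed signals, deposited ratios, probes above background in all 16 readings or the replicate block, 2 with median centring, and 0 to 1 without 1 bull. The 1 was FOS each time, and its paired difference was above 0 in bull 3. Median centring added FOSL2 (log2 -0.74, adjusted p = 0.0161), which was not well above background in any Limousin reading. The replicate block otherwise changed only the marbled calls of FOS and JUND. Median centring left the median of all probes at 0.10 in Hereford and -0.20 in Holstein-Friesian.

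Signs turned for values that were not called. With median centring, FOSB became 0.17 in Hereford, -0.45 in Holstein-Friesian and 0.61 in the difference, FOSL2 became -0.11 and JUNB 0.0438 in Hereford, and the difference became 0.20 for JUN, 0.15 for ATF6B and 0.19 for CREBBP. With the same dye, JUNB became 0.50 in Hereford and 0.30 in the difference, JUN 0.25 and SHMT2 -0.0867 in the difference. The mean over both probes gave FOSB 0.0345 in the marbled comparison. Leaving out 1 bull gave FOS -0.33 to 0.69, FOSB -0.93 to 0.16 and JUNB -0.35 to 0.0221 in Hereford, and FOSB -0.35 to 0.22 in the marbled comparison.

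The count of all probes called also moved with the processing. In Hereford (1217) it was 27 alone, 315 with median centring and 30 to 1055 without 1 bull. In Holstein-Friesian (1100) it was 6680 with median centring, 2157 with processed signals and 78 to 804 without 1 bull. In the marbled comparison (102) it was 950 with median centring, 909 with the replicate block, 371 with all 16 readings, 42 without a filter, 444 with processed signals, 438 with deposited ratios and 0 to 1 without 1 bull. In the difference (458) it was 6219 with median centring, 1715 with the block, 974 with processed signals, 979 with deposited ratios, 231 with the same dye and 0 to 457 without 1 bull. Deposited ratios gave 2129 in Holstein-Friesian, and the same dye 683 in Hereford. Of 717 checks of other named genes, 485 kept sign and call, 197 lost the call, 32 gained it and 3 turned sign. Alternatives that change only the fit leave a log2 ratio as it was, so those checks could not turn a sign. Every call is limited by 4 bulls per breed, and breed, dye and slide coincide.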

Other observations

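FOS ratios ran in opposite order over the bulls of the breeds: 1.98, 0.39, -0.30 and -1.09 in Hereford bulls 3, 1, 2 and 4, and 1.78, 3.75, 3.91 and 4.43 in Holstein-Friesian bulls 3, 1, 2 and 4. The Limousin bull is shared within each number, and no test was made of this order.

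FOSB had a ratio pattern close to that of genes with which it was not listed, a comparison added after its values were seen. The mean absolute difference of log2 ratio over the 8 arrays was 0.28 for CACNA1B, a neuronal calcium channel subunit, 0.29 for RBMXL2, an RNA-binding protein, and 0.30 for CCR10, a chemokine receptor. These 3 genes had their highest Hereford ratios at 1.29, 1.09 and 1.11, against 1.85 for FOSB. The cause of this likeness was not tested, nor was the specificity of the FOSB probe.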
